A study of Mus musculus with 24 samples.

Results

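Open chromatin of epidermal stem cells (EpdSCs) that had not been induced to express SOX9 was compared between cells taken directly from mouse back skin (D0) and cells grown in culture (noDOX). The 2 peak lists, restricted to chromosomes 1 to 19 and X, were merged wherever peaks overlapped by at least 1 bp, which gave 76322 regions. Of these, 32249 regions were in both lists, 23274 had a peak in skin only and 20799 had a peak in culture only. Both groups came from CD1 males labelled K14rtTA; TRE-myc-Sox9, which carry a Krt14-driven doxycycline (DOX) activator and a Sox9 transgene that stays off without DOX. For cultures that express SOX9 variants the methods instead describe Krt14-rtTA cells that received DOX-dependent SOX9 by lentivirus and were selected with puromycin, so the noDOX genotype is given here only as labelled. The D0 cells were sorted at postnatal day 21 as negative for CD31, CD45, CD117, CD140a and CD34 and high for CD49f and Ly6A. Several mice were pooled per replicate according to the study's methods. For noDOX the labels give keratinocytes extracted from back skin, without an age or a sort, and the methods describe cultures started from newborn pups and kept in low-calcium medium. Skin and culture were therefore confounded with age and with the sort, and these cannot be told apart here. The 2 lists were also deposited with different columns, so a difference in peak processing is possible and would be confounded as well. The whole series held 24 samples in 12 groups, and its other 10 lists were used only to look up the regions found here.

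EpdSCs are the basal cells that renew the interfollicular epidermis. ATAC-seq reads open chromatin through the insertion of sequencing adapters by the Tn5 transposase, and a peak marks a stretch where insertions pile up, usually a promoter or an enhancer. AP1 factors (FOS and JUN dimers) act at enhancers in response to growth and stress signals, TEAD factors are the DNA-binding partners of YAP and TAZ, and RUNX factors act in proliferating hair follicle and epidermal cells. GATA3 is a regulator of the epidermal lineage, and POU factors of the OCT family bind the octamer sequence. Peaks were called by the authors on the merged reads of both replicates, which left 1 list per group. No spread between replicates could be had and no p-value is given. Intervals are 95% Wilson intervals for shares and 95% Newcombe intervals for differences, and they cover counting error only. The files hold no read counts, so depth is unknown.

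The score of a peak is the authors' normalized peak score, and both lists started at a score of 3. The D0 list had 57300 peaks on the compared chromosomes (median width 546 bp, median score 9.96) and the noDOX list 53093 (514 bp and 10.8). The score totals were close, 948518 for D0 and 966531 for noDOX. The widest D0 peak measured 3565 bp and the widest noDOX peak 9245 bp. Regions in 1 list only were weaker and narrower than shared ones. The median score was 6.39 in skin only regions and 6.34 in culture only regions, against 15.3 (skin score) and 16.6 (culture score) in shared regions. The median width was 471 bp in skin only, 366 bp in culture only and 755 bp in shared regions. Strong regions of 1 list nevertheless existed on both sides, with 2291 skin only and 2109 culture only regions scoring at least 20.

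Sequences of 7 regions are shown so that the motif letters counted further on can be seen in place. Single regions need not follow the shares of their class: the skin only region near Tpbg holds AP1 letters, the culture only region in Thsd1 holds GATA letters besides AP1, and 3 of the 5 strongest culture only regions held no AP1 match in their central 200 bases. Each is the central 200 bases of a region on the plus strand of GRCm38, and capitals mark matches, on either strand, to the letters of AP1 (TGANTCA), of RUNX (TGTGGT), of TEAD (GGAATG), of SOX (which is ACAATAG, or else it is ACAATGG), of GATA factors (AGATAA) or of POU (ATGCAAAT). The first pair are the highest-scoring skin only regions, in introns or between genes, that held both a GATA and a POU match; they were chosen for those matches. One lies within the Adamtsl1 gene body (score 78.4) and the other lies 8.06 kb from the start site of Tbc1d22a (score 67.6).
Adamtsl1 intron, chr4:86347604-86347803: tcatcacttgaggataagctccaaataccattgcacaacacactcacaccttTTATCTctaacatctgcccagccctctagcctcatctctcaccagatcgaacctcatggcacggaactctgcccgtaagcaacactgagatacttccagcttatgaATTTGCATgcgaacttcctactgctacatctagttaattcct
Near Tbc1d22a, chr15:86206302-86206501: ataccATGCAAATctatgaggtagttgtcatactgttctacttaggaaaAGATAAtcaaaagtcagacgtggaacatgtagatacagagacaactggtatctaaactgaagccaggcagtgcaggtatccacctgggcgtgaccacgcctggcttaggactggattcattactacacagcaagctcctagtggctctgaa
The next is the second strongest skin only region by score (107.4), 43.7 kb from Tpbg, which held an AP1 match.
Near Tpbg, chr9:85886444-85886643: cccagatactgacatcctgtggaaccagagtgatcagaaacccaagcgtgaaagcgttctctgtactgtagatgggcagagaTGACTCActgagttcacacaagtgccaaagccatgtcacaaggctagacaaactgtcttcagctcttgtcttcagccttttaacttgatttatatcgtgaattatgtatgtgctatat
Of the 5 strongest culture only regions, those in the Thsd1 intron (score 115.0) and 194.1 kb from Nrp1 (score 102.5) held 2 AP1 matches each, and the latter also had RUNX and TEAD matches.
Thsd1 intron, chr8:22214979-22215178: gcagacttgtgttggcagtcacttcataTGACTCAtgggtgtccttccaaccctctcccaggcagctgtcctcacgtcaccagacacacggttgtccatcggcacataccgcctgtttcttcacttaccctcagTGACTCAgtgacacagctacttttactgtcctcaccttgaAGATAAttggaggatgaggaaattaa
Near Nrp1, chr8:128165076-128165275: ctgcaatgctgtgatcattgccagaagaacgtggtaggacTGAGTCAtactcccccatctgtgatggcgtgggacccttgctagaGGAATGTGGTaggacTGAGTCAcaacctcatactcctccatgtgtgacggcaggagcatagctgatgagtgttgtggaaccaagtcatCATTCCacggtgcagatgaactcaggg
The last pair are the shared regions with the largest score ratio towards culture (Tead4 intron) and towards skin (Plcb1 intron).
Tead4 intron, chr6:128282365-128282564: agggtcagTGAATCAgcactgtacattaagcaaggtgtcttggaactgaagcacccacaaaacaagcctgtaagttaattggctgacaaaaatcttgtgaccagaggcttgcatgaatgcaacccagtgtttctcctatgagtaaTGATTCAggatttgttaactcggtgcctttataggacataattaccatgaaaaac
Plcb1 intron, chr2:135175694-135175893: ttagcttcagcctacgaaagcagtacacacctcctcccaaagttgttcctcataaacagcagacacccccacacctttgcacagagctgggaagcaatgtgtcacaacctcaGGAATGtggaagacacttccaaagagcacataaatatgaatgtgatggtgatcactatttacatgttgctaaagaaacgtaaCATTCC

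Promoters were largely common to skin and culture, and the difference lay in distal regions. Of the shared regions, 33.6% (95% interval 33.0 to 34.1%) lay within 1 kb of the start site of a protein-coding gene, compared with 7.78% (7.44 to 8.13%) of skin only and 3.58% (3.33 to 3.84%) of culture only regions. Introns held 42.4% of skin only, 46.8% of culture only and 31.3% of shared regions, and intergenic sequence held 46.7%, 46.7% and 32.9%. The median distance to a start site was 29.4 kb for skin only, 29.9 kb for culture only and 9.75 kb for shared regions. Of all regions, 30.5% were skin only and 27.3% were culture only. Counts in gene windows further on are set beside the shares around all genes, 26.0% and 23.7%.

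Overlap depended on peak strength. Each list was cut into 5 equal bins by score. Of D0 peaks in the lowest bin, 36.0% overlapped a noDOX peak, rising to 87.2% in the highest. In the other direction the share rose from 33.6% to 90.7%. At promoters the highest bin was shared almost entirely, 97.9% of D0 peaks and 99.8% of noDOX peaks. Away from promoters the corresponding shares were 78.6% (77.5 to 79.6%) and 82.8% (81.8 to 83.8%).

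**Figure D1:**
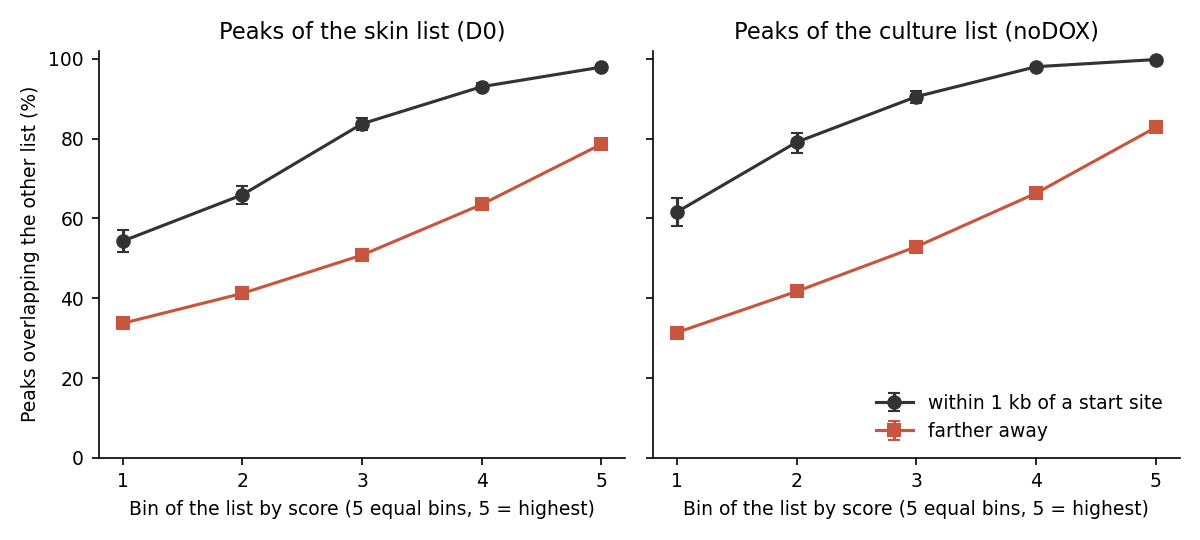
Share of peaks of each list (y axis, %) that overlapped the other list, by bin of score (x axis, 5 the highest), for peaks within 1 kb of a start site and farther away; error bars are 95% Wilson intervals. Distal peaks reached 78.6% (D0) and 82.8% (noDOX) in the highest bin, against 97.9% and 99.8% at promoters.

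Culture only regions were rich in AP1 matches and skin only regions in GATA and POU matches. AP1 letters were found in the central 200 bp of 39.5% of culture only, 18.9% of skin only and 21.6% of shared regions, with 25.6% over all regions. The difference between culture only and skin only regions was 20.6 percentage points (19.7 to 21.4). RUNX matches were found in 20.1% of culture only and 12.4% of skin only regions, a difference of 7.67 points (6.98 to 8.36), with 14.5% over all regions. TEAD matches were at 19.1% and 13.1% (6.04 points, 5.35 to 6.72), with 14.6% over all regions. SOX matches were at 5.44% and 3.75% (1.69 points, 1.30 to 2.09), with 3.88% over all regions. The inverse held for GATA, at 9.13% of culture only and 16.2% of skin only regions (-7.08 points, -7.70 to -6.47), with 10.6% over all regions. POU matches were at 0.942% and 2.90% (-1.95 points, -2.21 to -1.70), with 1.61% over all regions. The homeobox letters TAATTA were at 3.67% and 5.68% (-2.01 points, -2.40 to -1.62), with 3.90% over all regions. In all, 63% of culture only regions held a match to AP1, RUNX, TEAD or SOX, compared with 40.5% of skin only and 40.2% of shared regions. The size of these differences depended on the window. Over whole regions, which were wider in the skin only class, the GATA difference was -14 and the POU difference -3.19 points. There the SOX difference was 0.858, the TEAD difference 3.46 and the homeobox difference -6 points. In the central 500 bp, of equal width in both classes, GATA and POU were -8.44 and -2.59, and SOX, TEAD and homeobox 3.09, 7.33 and -3.57. With stricter classes (no peak in any list of the other setting) the TEAD difference was 9.74 points. A match to GATA, POU or homeobox letters was held by 22.7% of skin only, 13.1% of culture only and 10.8% of shared regions. These shares describe short letter strings, and no binding of any factor was measured.

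Smaller differences were found for other factors. Matches to NFY letters (CCAAT) were in 24.3% of skin only and 20.8% of culture only regions (-3.51 points, -4.29 to -2.73), with 21.7% over all regions, and over whole regions the difference was -12.2 points. The steroid receptor motif was in 0.966% of culture only and 0.498% of skin only regions (0.468 points, 0.309 to 0.633), with 0.608% over all regions. That difference was 0.750 points in the central 500 bp, 0.729 with stricter classes and 1.22 at a score of at least 20. CEBP matches (TTGCNNAA), a family linked to keratinocyte differentiation, were in 10.2% of both classes, a difference of -0.0840 points with an interval of -0.649 to 0.483, and in 9.25% of all regions. Over whole regions, which were wider in the skin only class, the CEBP shares were 19.1% in culture only and 23.0% in skin only (-3.96 points, -4.71 to -3.19). SP letters (GGGCGGG), typical of CG-rich promoters, were found mainly in shared regions (14.1%, against 5.27% in skin only and 2.69% in culture only) and in 8.31% of all regions. Median GC content also differed, at 49.0% in skin only, 47.5% in culture only and 53.5% in shared regions. With equal weight given to 5 bins of GC content, the AP1 difference was 18.2 points and the GATA difference -6.97 points. Over 1 kb from start sites the AP1 shares were 40.3% in culture only, 19.9% in skin only and 30.7% in shared regions, so shared distal regions lay between the other two classes. For GATA these distal shares were 9.30%, 17.0% and 10.2%, and for POU 0.942%, 3.01% and 1.35%.

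**Figure D2:**
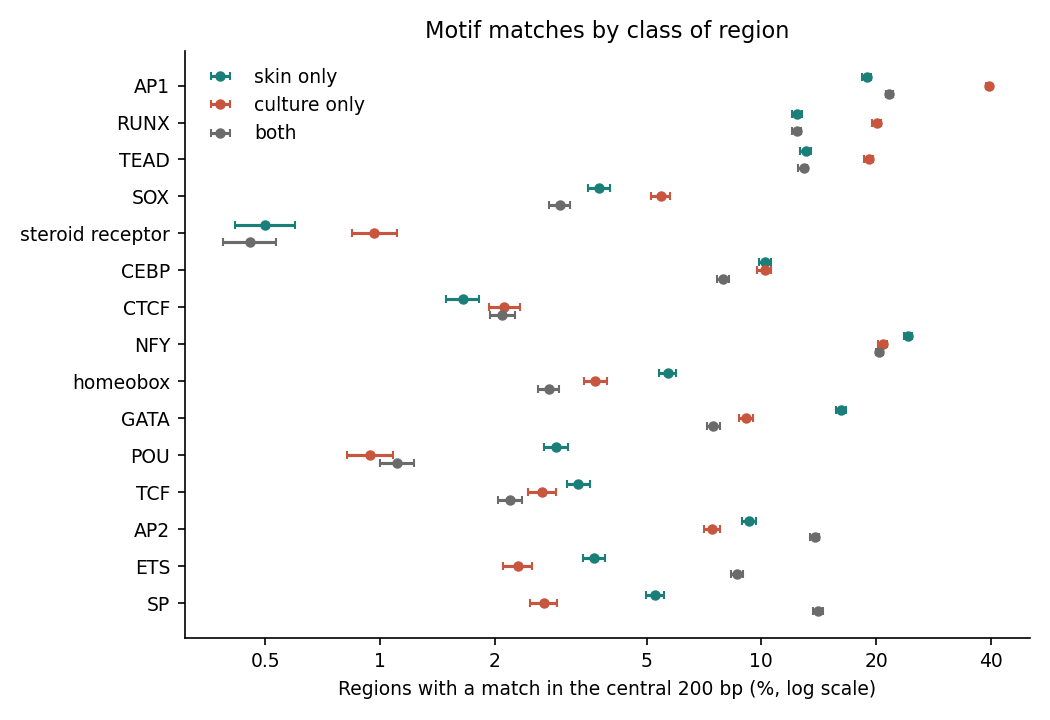
Share of regions with a motif match in the central 200 bp (x axis, %, log scale) for 15 motifs (y axis) in skin only, culture only and shared regions; error bars are 95% Wilson intervals. AP1 stood at 39.5% in culture only and 18.9% in skin only regions, GATA at 9.13% and 16.2%.

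The matches also differed in where they lay. In the 20 bp bin at the region centre, 5.74% of culture only regions held an AP1 match, against 0.909% in the bin 240 bp upstream. Skin only regions had the same shape at a lower level, from 2.81% at the centre to 0.537%. GATA matches peaked at the centre of skin only regions (1.92%, against 1.29% at 220 bp and 1.08% at 240 bp upstream). In culture only regions they were at 0.813%, 1.24% and 0.990% in these bins. POU matches followed GATA, at 0.288%, 0.172% and 0.0816% in skin only regions and at 0.111%, 0.0914% and 0.106% in culture only regions. RUNX and TEAD matches were centred in culture only regions, at 2.38% and 2.31% in the central bin against 1.57% and 1.15% at 240 bp. TEAD matches were also higher at the centre of skin only (1.51% against 1.02%) and shared regions (1.37% against 1.01%). The homeobox letters had no such peak, with 0.623% of skin only regions at the centre, 0.507% at 240 bp and a higher share at 220 bp. The bin at 240 bp was the outermost one counted. It was lower than the bin at 220 bp for most motifs and classes, so contrasts with it may be too large. At 220 bp, AP1 was at 1.17% of culture only and 0.619% of skin only regions. RUNX and TEAD were at 1.73% and 1.42% of culture only regions there. TEAD was at 1.18% of skin only and 1.15% of shared regions. TEAD letters were in 18.4% of culture only regions with an AP1 match and in 19.6% of those without one, and GATA letters were in 16.5% of skin only regions with a RUNX match and in 16.2% of those without. In shared regions, which include promoters, the shares lay further apart. AP1 letters were in 33.2% of shared regions with a GATA match and in 20.7% of the rest, against 20.1% and 18.7% in skin only regions. With and without an AP1 match, shared regions held RUNX letters in 15.1% and 11.6% and TEAD letters in 16.7% and 11.8%.

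**Figure D3:**
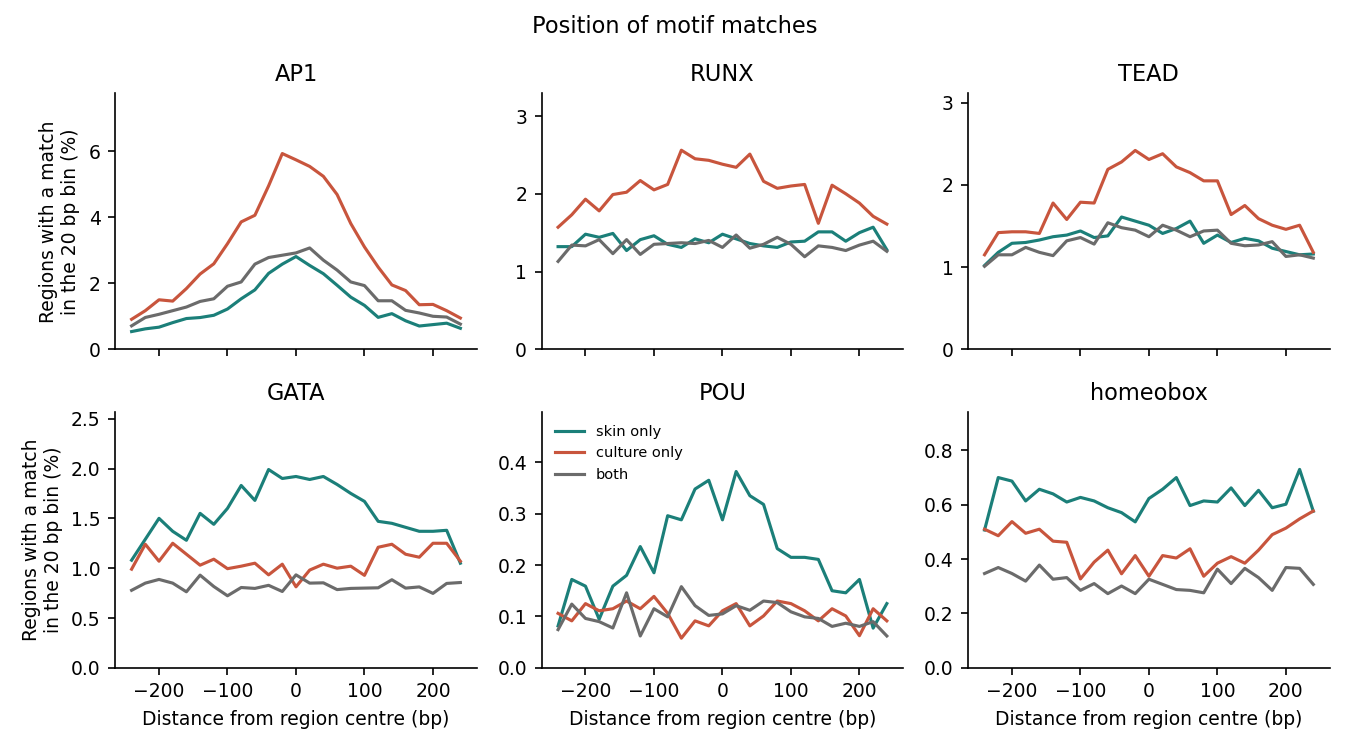
Share of regions with a match (y axis, %) in 20 bp bins by distance from the region centre (x axis, bp) for 6 motifs, in skin only, culture only and shared regions. AP1 reached 5.74% of culture only regions in the central bin, and GATA and POU had a central peak in skin only regions.

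Shared regions were not equally strong in both lists. The median log2 ratio of the highest score (noDOX over D0) was 0.12, with quartiles of -0.57 and 0.80. A difference of at least 4-fold was found in 1500 shared regions towards culture (4.65%) and in 1350 towards skin (4.19%). With the ratios centred on their median the counts were 1251 and 1589, so which side had more depended on the scaling. Among promoters these shares were 1.55% and 1.66%, and in distal shared regions 6.22% and 5.46%. Motif shares in these regions went the same way for the leading motifs. The regions come from the same 2 lists and scores as the classes, so they are not separate evidence. AP1 matches were in 35.3% (32.9 to 37.7%) of regions higher in culture, 25.7% (23.4 to 28.1%) of regions higher in skin and 20.7% of shared regions under 4-fold. Regions within 1 kb of a start site made up 11.2%, 13.3% and 35.6% of these groups, and among distal shared regions as a whole the AP1 share was 30.7%, above that of regions higher in skin. RUNX matches were in 19.4%, 10.7% and 12.1%. GATA matches were in 7.93% (6.67 to 9.41%), 16.6% (14.7 to 18.7%) and 7.03%, and POU matches were in 1.07%, 2.59% and 1.04%. For TEAD the intervals of both tails overlapped, at 16.9% (15.1 to 18.9%) and 14.2% (12.5 to 16.2%).

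The shared region furthest towards culture lay in an intron of Tead4, which encodes a TEAD factor, with a score of 3 in D0 and 89.2 in noDOX (29.7-fold). Its score in the later skin lists was 3 (W1), 18.5 (W2), 27.3 (W6) and 19.2 (W12), and it ranged from 55.2 to 114.3 in the other 6 culture lists. Its W1 score thus equalled the lowest score kept in any list, whereas all culture scores were far above it. A region near Prag1 followed (3.30 and 94.3), and then introns of Eif3h (3.62 and 81.6), Ninj2 (4.09 and 92.0) and Nfatc2 (3.79 and 82.3), the last encoding a calcium-responsive transcription factor. Furthest towards skin was the Plcb1 intron, which encodes a phospholipase, at 126.1 in D0 and 3.79 in noDOX (33.3-fold). A region at the start site of Armh4 scored 168.1 and 6.46, and an intron of Ddr2, a collagen receptor, 78.0 and 3.07. The Ddr2 region had scores of 28.5 to 48.4 in the 4 later skin lists and no peak in any of the 6 DOX culture lists. The Plcb1 region scored 83.8 at W1 and 74.3 at W2 but 5.33 at W6 and 12.5 at W12. It had weak peaks in WT-SOX9 (6.52), AFOS (5.53), SOX9+AFOS (3.32) and SOX9+ARID1a (4.72).

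Whole loci differed by class. In windows of the gene body and 10 kb on each side, Rora, which encodes a nuclear receptor of the ROR family, had 37 skin only, 0 culture only and 2 shared regions. Auts2 had 38 skin only, 8 culture only and 16 shared regions. Foxn3, a forkhead factor, had 22 skin only, 0 culture only and 12 shared, and Robo1, a SLIT receptor, 21, 0 and 1. Others with at least 19 more skin only than culture only regions were Lrmda, Adamtsl1, Arhgap24, Tenm2, Adgrg6 and Prickle2. On the culture side Foxp1, another forkhead factor, had 39 culture only, 5 skin only and 17 shared regions, and Ntm had 21, 3 and 1. Cald1, which encodes the actin-binding protein caldesmon, had 16 culture only, 0 skin only and 5 shared regions. All 15 regions of Dysf, which encodes the membrane repair protein dysferlin, were culture only, with scores of 3.03 to 105.5. Trio had 18 culture only, 3 skin only and 11 shared regions. Ralgps1, Cntnap5b, Exoc4, Agap1 and Plekhg1 had an excess of 13 to 15. Most of these genes are long, with lengths of 143.1 to 1230.4 kb, so their windows hold more regions than an average gene. Over all 21631 genes, 26.0% of window regions were skin only and 23.7% culture only, and 5389 genes had more skin only than culture only regions against 5361 with the reverse. A region in the windows of several genes was counted once for each, here and in the gene lists below, as for the neighbours Krt6a and Krt6b.

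**Figure D4:**
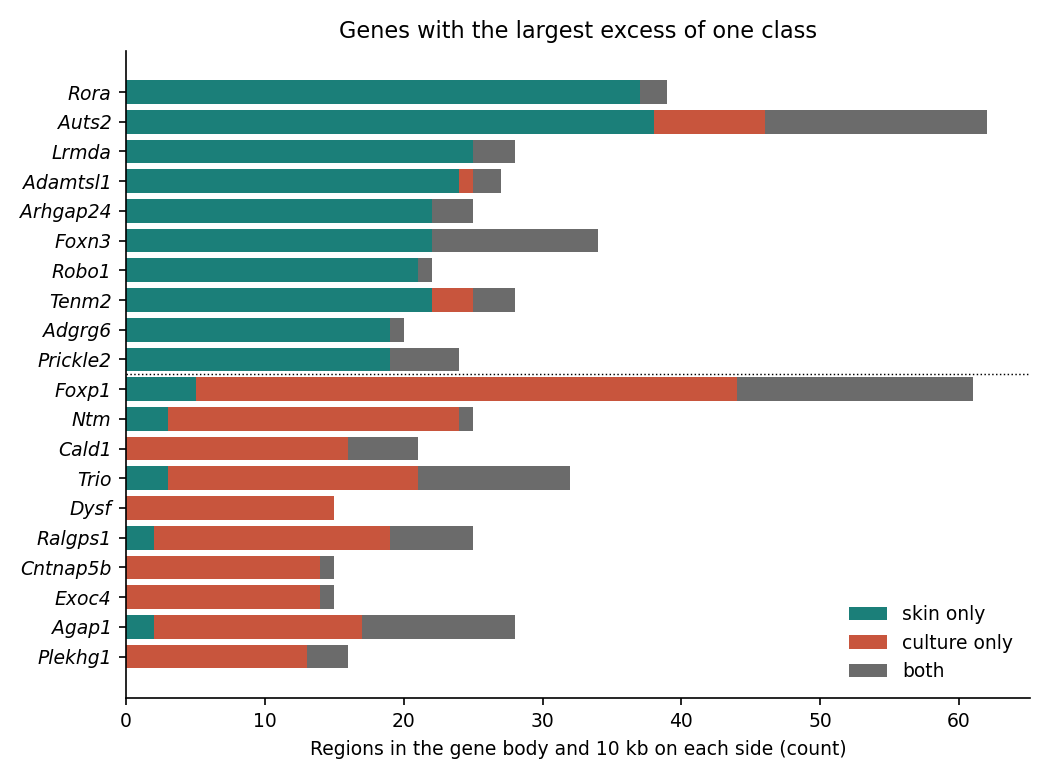
Number of regions of each class (x axis) in the body and 10 kb flanks of the 10 genes with the largest excess of skin only regions (upper bars) and of culture only regions (lower bars). Rora had 37 skin only and 0 culture only regions, Foxp1 5 and 39.

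Promoter peaks, taken within 1 kb of a start site, were found in both lists for 11554 of 21644 genes and in neither for 8302. A promoter peak in skin only was found for 1267 genes (5.85%) and in culture only for 521 genes (2.41%). These states go by peaks that reach into the window, so a promoter peak of 1 list can belong to a shared region whose other peak lies outside the window. That was the case for 20 of the 1267 genes (1.58%) and 24 of the 521 (4.61%), among them Jrkl, Snx20, Gm10718, Gm17535, Dlx1 and Vsig8 of the genes named next. The highest-scoring promoters of skin only were those of Robo1 (77.1), Pdzk1ip1 (70.2), Jrkl (67.2), Aldh1a7 (65.6), Ccdc89 (64.0), Bace2 (63.6), Pkib (63.5), 6720489N17Rik (61.3), Snx20 (61.2) and 6430531B16Rik (60.4). Those of culture only included Gm10718 (84.1), Prkg2 (70.5), Gm17535 (67.2), Dlx1 (59.3), Gm43517 (59.1), Slc4a2 (54.8), Sulf1 (50.7), Vsig8 (46.7) and B4galt5 (46.0). Prkg2 encodes a cGMP-dependent kinase, Dlx1 a developmental transcription factor and Sulf1 a heparan sulfate sulfatase. The Gm entries are predicted gene models and were not matched to a RefSeq protein-coding gene by symbol.

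Genes of epidermal identity had promoter peaks in both settings, as did 53.4% of all genes. All 8 basal keratinocyte markers had one in both lists, including Krt14 (23.7 in D0 and 32.8 in noDOX), Krt5 (21.7 and 23.1), Itga6 (14 and 36.4) and Trp63 (20.3 and 13.8). Of 24 epidermal transcription factors, 23 had a promoter peak in both lists, among them Gata3 (26.8 and 53.8) and Klf5 (90.1 and 70.9). The exception was Zfp750, a differentiation regulator, with a peak in culture only (9.06). The 27 adhesion and hemidesmosome genes and the 19 cell cycle and senescence genes all had promoter peaks in both lists. Around the adhesion genes, 27.6% of window regions were culture only and 16.8% skin only, compared with 23.7% and 26.0% around all genes. Of the adhesion genes, 13 had more culture only than skin only regions, 5 had the reverse and 9 had equal numbers. Lama3, a laminin chain of the basement membrane, had 10 culture only and 5 skin only regions, and Dsc3, a desmosomal cadherin, 6 and 1. Even at Krt14 a culture only region was found, at chr11:100215255-100215921, with a score of 32.4 and AP1 and TEAD matches. The Krt14 window also held a weak skin only region (score 3.46). The AP1 genes themselves were open in both, with promoter scores of 24.3 and 38.6 for Jun, 27.4 and 44.7 for Fosl1 and 9.11 and 67.3 for Atf3, and 11 of 12 genes of this list had a promoter peak in both lists (Batf in neither).

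Signalling genes of the niche differed at single loci. Of 30 ligands and receptors, 24 had promoter peaks in both lists, 4 in skin only, 1 in culture only and 1 in neither, against 53.4%, 5.85%, 2.41% and 38.4% over all genes. Lgr6, a receptor for R-spondins and a marker of epidermal stem cells, had 7 regions, all skin only, with a promoter score of 19. Its relative Lgr5, a marker of hair follicle stem cells, had 5 regions, all culture only, with a promoter score of 9.77 and a further intronic score of 24.6. The 8 hair follicle stem cell markers as a list had 14 skin only and 13 culture only regions, and Nfatc1 (5 skin only, 2 culture only) and Lhx2 (3 and 0) went the other way from Lgr5. Bmp4 had a skin only promoter region (45.9), a second skin only region in an intron (23.5) and an upstream shared region with scores of 51.7 in D0 and 3.55 in noDOX. The WNT ligand gene Wnt5a (19.1) and Lef1 (18.1), which encodes a nuclear effector of WNT signalling, completed the skin only promoters, and Wnt4 (5.66) was the culture only one. The score of the Bmp2 promoter was 23.4 in D0 and 4.33 in noDOX, and that of Tgfbr2, a TGFβ receptor, 41.4 and 17.5. The Igf1r window had 12 culture only and 6 skin only regions.

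Wound and stress genes had regions of every class in their windows. Of these 161 window regions, 29.2% were culture only and 21.1% skin only, against 23.7% and 26.0% around all genes, a difference that was not tested, and 14 of 29 genes had more culture only than skin only regions while 5 had the reverse. Promoter peaks in culture only were found for 4 of these 29 genes, S100a8 (16.4), S100a9 (13.8), Sprr1b (6.30) and Mmp9 (4.26), against 2.41% of all genes. S100a8 and S100a9 encode the calprotectin subunits induced in wounded epidermis, and a culture only region beside S100a8 scored 30.3 and held AP1 and RUNX matches. The keratin genes Krt6a (5.44 and 22.5) and Krt16 (29.1 and 92.6), which are induced in wounds, had promoter peaks in both lists. The score of Hbegf, an EGFR ligand, was 8.43 in D0 and 51.5 in noDOX. Il33, which encodes an alarmin, was the only gene of the list with a promoter peak in skin only (26.5), and it had a skin only intronic region of 40.3. A list of 20 genes of epithelial-mesenchymal transition and mesenchymal cells, which also holds epithelial members such as Itgb6 (7 of the 50 culture only regions), had 34.7% of 144 window regions in culture only and 22.2% in skin only, against the same 23.7% and 26.0% around all genes and likewise not tested. Its promoter peaks were in both lists for 13 genes, in neither for 3 and in 1 list for 2 each way, against 5.85% (skin only) and 2.41% (culture only) of all genes. Zeb2 (9.71) and Twist1 (3.07) had promoter peaks in culture only, and Tnc (15.7) and Lgals1 (3.38) in skin only.

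Differentiation genes were divided. Of 106 window regions of 25 genes, 33.0% were skin only and 19.8% culture only, against 26.0% and 23.7% around all genes, and 10 genes had more skin only and 10 more culture only regions. One gene, Tgm3, held 11 of the 35 skin only regions. Promoter peaks were in skin only for 2 genes, in culture only for 3, in both lists for 10 and in neither for 10. Over all genes these shares were 5.85%, 2.41%, 53.4% and 38.4%, which also serve for the lists that follow. Tgm3, a transglutaminase of the cornified layer, had 1 culture only and 4 shared regions besides, and a skin only promoter (21.6), and the desmosomal cadherin gene Dsc1 had one of 8.76. Sprr2d (7.34), Sprr1b (6.30) and Lce3c (7.05), all genes of the cornified envelope, had promoter peaks in culture only. Krt10 had 5 skin only and 0 culture only regions. Interferon and antigen presentation genes had promoter peaks in skin only for 4 of 22 genes, Ifit1 (4.92), Oasl2 (3.23), H2-Eb1 (6.56) and Gbp2 (4.12), and in culture only for 0. Over all genes these shares were 5.85% and 2.41%. H2-Eb1 is an antigen presentation gene of the same class as the immune marker H2-Aa, whose promoter peak was also in skin only, and the part of immune cells in these counts was not tested. Promoter peaks in both lists were found for 14 genes of the list, H2-K1 among them (39.2 and 16.0), and in neither for 4. Of 18 sterol and lipid genes, 14 had promoter peaks in both lists and 3 in neither. The remaining gene, the fatty acid elongase gene Elovl6, had a noDOX peak alone within 1 kb of its start site (5.55), in a shared region, and its window held 8 skin only, 1 culture only and 5 shared regions. Promoter scores in D0 and noDOX were 34.9 and 10.4 for Scd1 but 42.7 and 94.0 for Hmgcs1 and 16.4 and 38.0 for Fasn. Of the glucocorticoid and clock genes, 17 of 18 had promoter peaks in both lists, and Klf15 (12.4) in skin only. Among 13 oxidative stress genes, Nqo1 (21.2) alone had a promoter peak in 1 list only, in skin.

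Promoter peaks of some markers of other cells were found, some with higher scores than that of Krt14 (23.7 in D0 and 32.8 in noDOX). Over all genes, 5.85% had them in skin only, 2.41% in culture only, 53.4% in both lists and 38.4% in neither. Of 7 melanocyte markers, Dct (38.0) had a promoter peak in skin only, Pmel had a D0 peak alone within 1 kb (9.58) but in a shared region, Mitf had them in both (89.7 in D0 and 50.1 in noDOX), and Tyr, Tyrp1, Sox10 and Mlana in neither. Of 8 Langerhans and immune markers, H2-Aa (8.80) had a promoter peak in skin only, Cd74 and H2-Ab1 in both, and Ptprc, Cd207, Cd3e, Cd3g and Coro1a in neither. Of 6 Merkel cell markers, Atoh1 (12.4) was in skin only, Krt8 (36.0 and 43.5), Isl1 (38.6 and 16.1) and Sox2 were in both and Krt18 and Krt20 in neither. Of 7 fibroblast markers, Pdgfra and Col1a1 had promoter peaks in both lists and 5 in neither. Of 6 endothelial markers, Tek (6.03) was in skin only, Kdr (7.75) in culture only and 4 in neither. Around the endothelial markers 52.4% of 21 window regions were skin only and 14.3% culture only, with 6 of the 11 skin only regions at Pecam1. These shares were 31.8% and 36.4% for melanocyte, 35.3% and 17.6% for immune, 33.3% and 41.7% for fibroblast and 16.7% and 33.3% for Merkel cell markers. Around all genes they were 26.0% and 23.7%. Ly6a, which encodes the antigen used in the sort, had a skin only promoter (9.66), and of the other regions of its window 2 were skin only and 2 culture only, the strongest of these in culture (13.2). The part of other cells in the skin only class was not tested, and in bulk samples a peak from few cells and a weak peak in many cannot be told apart.

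Most regions of each class were found again in lists that had played no part in forming the classes. Of skin only regions, 80.1% (79.5 to 80.6%) had a peak after 1 week of SOX9 induction in skin (W1), and 62.8%, 61.4% and 65.3% had one at W2, W6 and W12, the last from grafted skin, and 6.12% to 12.3% in the 6 culture lists with DOX at 1 µg per ml. Of culture only regions, 41.8% to 76.3% had a peak in those culture lists. In skin 9.32% (8.93 to 9.73%) of them had a peak at W1, which became 21.4%, 38.5% and 40.3% at the later times. Shared regions were found in 79.8% to 96.5% of cases in each of the 10 lists. Among regions scoring at least 20, 99.9% of skin only regions had a peak at W1, and 73.5% to 98.8% of culture only regions had one in each DOX culture list. Of the strong culture only regions, 5.97% had a peak at W1 and 69.1% at W12. Only 4.70% of skin only and 2.95% of culture only regions had no peak in any of the 10 other lists.

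**Figure D5:**
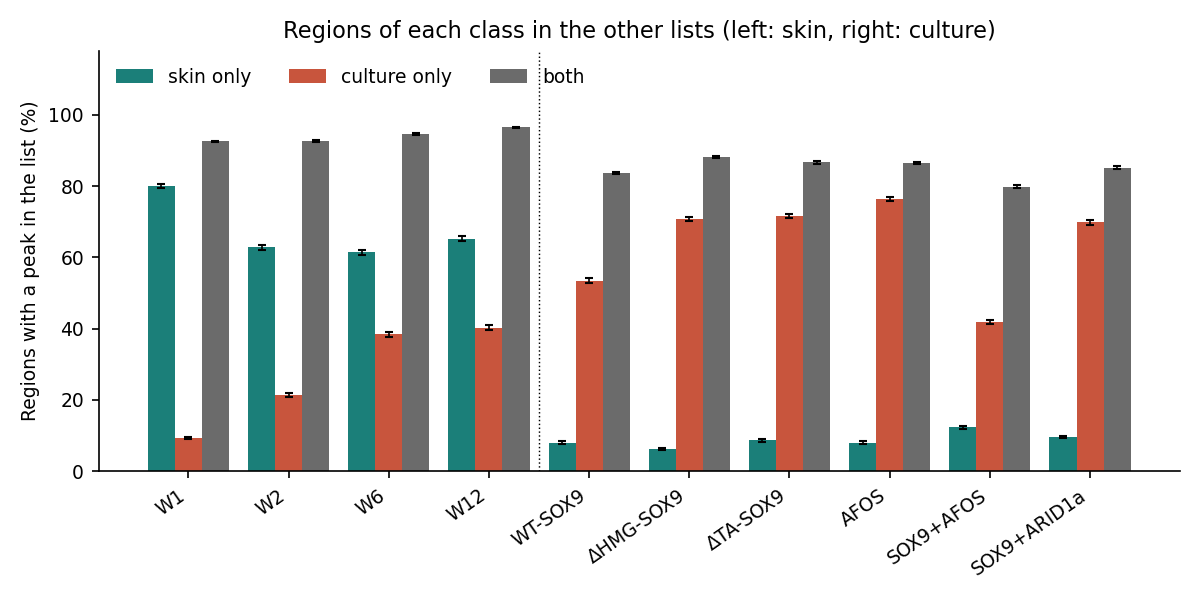
Share of skin only, culture only and shared regions (y axis, %) with a peak in each of the 10 other lists (x axis), the 4 later skin lists on the left and the 6 DOX culture lists on the right; error bars are 95% Wilson intervals. Culture only regions went from 9.32% at W1 to 40.3% at W12, and skin only regions stayed at 6.12% to 12.3% in culture.

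For some motifs and lists, the presence of a region elsewhere differed with its motif content. Of culture only regions with an AP1 match, 81.7% had a peak in the AFOS list and 27.8% in SOX9+AFOS, where AFOS is a dominant-negative FOS that keeps AP1 off DNA, against 72.8% and 51.0% of those without a match. The differences were 8.90 points (7.75 to 10) and -23.1 points (-24.4 to -21.8). The WT-SOX9 list, which has no AFOS, also had a lower share with a match (49.8% and 55.9%, -6.11 points, -7.50 to -4.73), while the difference was 12.3 points in ΔTA-SOX9, 5.18 in ΔHMG-SOX9 and 4.07 in SOX9+ARID1a. At W1, 3.47% of culture only regions with an AP1 match and 13.1% of those without had a peak, and at W12 45.7% and 36.7%, while at W6 the shares were 38.5% in both. Skin only regions had the same signs, with differences of -9.61 points at W1, 11.9 at W12, 7.67 in ΔTA-SOX9, 5.09 in AFOS and -8.95 in SOX9+AFOS. For RUNX matches in culture only regions the interval included 0 at W2, W6 and W12 and in ΔTA-SOX9, and over all 10 lists the differences were -2.82 to 3.71 points. For POU matches in skin only regions it included 0 at W1, W2 and W12. SOX matches in culture only regions went with presence in the WT-SOX9 list (65.9% with and 52.8% without, a difference of 13.1 points, 10.2 to 15.9), and in the opposite sense in the ΔHMG-SOX9 (-6.07 points, -8.96 to -3.27), ΔTA-SOX9 (-9.96 points, -12.9 to -7.11) and AFOS lists (-3.81 points, -6.54 to -1.22), of which the first has SOX9 without its DNA-binding domain, the second SOX9 without its transactivation domain and the third no SOX9 transgene. Of the other lists with SOX9 induced, W1 also had the opposite sense (6.63% with and 9.48% without, -2.85 points, -4.22 to -1.20), and the differences in W2, W6, W12, SOX9+AFOS and SOX9+ARID1a were 6.56 to 10.1 points. Skin only regions with a GATA match were less often present at W6 (47.1% with and 64.2% without, -17.1 points, -18.8 to -15.4) and slightly more often at W1 (83.4% and 79.4%, 4 points, 2.66 to 5.29).

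Chromosomes did not share the classes evenly. Skin only regions made up 39.9% of regions on chromosome 13 and 38.9% on chromosome 14, but 24.8% on chromosome 2. The median log2 score ratio of shared regions (noDOX over D0) was -0.37 on chromosome 13, -0.22 on chromosome 14, 0.39 on chromosome 2 and 0.37 on chromosome 11. For the same shared regions on chromosome 13, the median log2 ratio to D0 was -0.15 to 0.01 in the 4 later skin lists and -0.80 to -0.28 in all 7 culture lists. Chromosome 11 had values of 0.29 to 0.69 in the culture lists and -0.03 to 0.32 in the skin lists. Culture only regions made up 20.1% to 34.5% of the regions of a chromosome. On chromosome 6, which holds Foxp1, Cald1, Dysf and Exoc4, 32.4% of regions were culture only and 26.9% skin only, with a median log2 ratio of 0.28. The part of these differences in the counts at genes was not tested. The AP1 difference between culture only and skin only regions was 17.9 to 24.7 points within single chromosomes and the GATA difference -9.34 to -3.24 points. The RUNX difference was 1.73 to 11.1 points and the POU difference -3.91 to -0.948 points. The TEAD difference was -0.175 to 8.78 points, and chromosome 19 had the value below 0.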

How the data were processed

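ATAC-seq peaks were compared between D0 and noDOX, 2 replicates each. According to the methods, PEPATAC was the pipeline for alignment to GRCm38. After the replicates had been merged, the authors ran MACS2, and the peak calls were normalized for depth and a threshold was set on them. The submitters' processing notes name Bowtie2 2.2.9, Picard 2.3.0, SAMtools 1.9, MACS2 2.1.1 and deepTools 2.5.4 without a role and do not name PEPATAC. The authors deposited a normalized peak score with a lowest value of about 3. Similar score sums were read here as scaling to one total, a step whose details the sources used here give only by citation. For D0 the authors also deposited a fold enrichment (median ratio 8.66) and a −log10 q-value (lowest 14.5). These D0 values were not used to form classes, and noDOX had the score alone. A score of 3 may thus stand for unequal evidence in the 2 lists.

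Regions were placed with GENCODE M21 start sites, and gene windows used RefSeq GRCm38.p6 gene bodies (1 listed gene, Mx1, was not matched). Motifs, 24 in all, were searched on both strands of the central 200 bp, with no scoring matrix. Matches of different motifs may overlap. A score ratio of at least 4-fold was counted. Genes were named as the 10 with the largest excess of regions each way, the 10 highest promoters of 1 list only each way, the 5 top regions of each kind, and genes of 20 lists. Some genes that this rule names are not reported here. All members and lists were chosen with earlier results of these data known. Python 3.11.15, numpy 2.4.6, pandas 2.3.3 and matplotlib 3.10.9 were used, and the code was tested on simulated data. Alternatives were a score of at least 5, lists cut to equal size, other overlaps and windows, distal regions, GC bins and stricter classes.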

Additional observations from a re-analysis of the deposited data

Results flagged for a closer look

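The D0 list held 12 peaks on chromosome Y and 22 on unplaced sequences, which lay outside the compared chromosomes. The noDOX list had 0 of either kind, although both groups are labelled male, so these peaks could not be compared between skin and culture.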

How the results depend on the processing

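No paired analysis was possible because each group was 1 list of merged replicates, and for the same reason no replicate could be left out. The class sizes stayed within 1.5 times under each alternative apart from 1: with culture only regions limited to those absent from all 5 skin lists, 10039 were left. Promoter shares within 1 kb moved, at a score of at least 5, to 8.52% (skin only), 4.60% (culture only) and 39.1% (both), with lists cut to equal size to 3.88% (culture only) and 34.5% (both), with stricter classes to 2.64% (culture only), and with a distance of 5 kb to 17.3%, 13.1% and 41.9%. The AP1 difference in percentage points was 25.6 over whole regions, 26.4 in the central 500 bp, 18.6 at a score of at least 5, 19.7 with lists cut to equal size, 18.2 with 5 GC bins and 27.7 at a score of at least 20, an alternative chosen after seeing the data. The GATA difference was -14.0 over whole regions, -8.44 in 500 bp, -7.74 away from start sites and -10.7 at a score of at least 20. The RUNX difference was 5.33 over whole regions, 10.5 in 500 bp, 6.90 with 5 GC bins, 8.81 with stricter classes and 11.8 at a score of at least 20. The POU difference was -3.19 over whole regions, -2.59 in 500 bp, -2.35 with stricter classes and -2.42 at a score of at least 20. One result reversed, the NRF2 motif, from 3.25 points to -1.06 over whole regions, which are wider in skin only than in culture only regions; the cause was not tested. At least 5 more skin only regions were held by 403 genes with flanks of 10 kb and 1131 with 50 kb, and at least 5 more culture only regions by 266 and 770. Of all alternative values, 182 were close to those reported, 131 moved and 1 reversed. Weak peaks limit the classes, since depth is unknown and most regions of 1 list scored under 20.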
